A study of Drosophila melanogaster with 2 samples.

Results

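The intronic binding sites described here are the 486 optimal peaks of the CG4282 protein, 24.5% of that list, whose summit lay more than 500 bp from every annotated transcription start site (TSS), inside a gene body and outside every annotated exon. The rest of the list consists of 1294 promoter, 164 intergenic and 41 exonic peaks. All were found by chromatin immunoprecipitation followed by sequencing (ChIP-seq), with an antibody against GFP, on whole Drosophila melanogaster embryos of both sexes aged 0 to 24 h. The embryos came from 1 transgenic line that stably expresses CG4282 with GFP at its C-terminus, and 2 libraries, numbered biological replicates 3 and 4, form the only group. Embryos of all ages and tissues were pooled, so a site used in few cells and a site occupied weakly in many cannot be told apart. No control library or untagged line was among the samples, and sites shared by other GFP immunoprecipitations were not measured. The authors' signal of each peak is an enrichment value whose scale depends on the library and is compared here within a list only, and the depth behind it is unknown.

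Introns are removed from the transcript, but in flies they hold much of the regulatory DNA of a gene. First introns, which follow the first exon, are often long and carry many enhancers, short stretches of DNA that bind transcription factors and raise transcription from a start site at a distance. Proteins found there may also reach the DNA through a partner or through contact with a promoter, and a peak of immunoprecipitated chromatin does not separate these.

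The sequences under the strongest intronic summits are shown first because they share a composition rich in A and T. Each window below is the summit base and 50 bp to either side in build dm6, plus strand, of the 6 strongest intronic peaks outside 1 arm whose sequence is not shown. Capitals mark AGTTTTA or its reverse complement TAAAACT, a word read off these windows after they were seen.
ush (chr2L:481032-481132): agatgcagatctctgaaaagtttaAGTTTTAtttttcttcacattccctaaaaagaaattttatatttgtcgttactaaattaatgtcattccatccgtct
CG11050 (chr2L:6612677-6612777): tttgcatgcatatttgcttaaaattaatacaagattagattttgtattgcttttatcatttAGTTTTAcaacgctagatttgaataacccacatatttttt
Lk6 (chr3R:11760989-11761089): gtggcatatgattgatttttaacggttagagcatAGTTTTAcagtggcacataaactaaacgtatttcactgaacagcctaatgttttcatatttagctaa
CG32772 (chrX:4910314-4910414): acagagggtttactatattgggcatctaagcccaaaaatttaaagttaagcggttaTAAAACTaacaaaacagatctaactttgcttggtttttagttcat
CG9663 (chr2L:3302132-3302232): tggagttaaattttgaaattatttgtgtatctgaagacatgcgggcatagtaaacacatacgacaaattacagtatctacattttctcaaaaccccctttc
NFAT (chrX:13640444-13640544): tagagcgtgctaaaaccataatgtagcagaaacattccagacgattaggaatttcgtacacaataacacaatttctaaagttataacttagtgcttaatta
The ush window had a GC content of 27.7%, and the GC contents of the others ranged from 23.8% to 33.7%. AGTTTTA in either orientation occurred in 5 of the 20 strongest intronic windows (25%, Wilson 95% interval 11.2 to 46.9) and in 5% of the windows flanking those 20. Among the 50 strongest it was in 6 intronic windows (12%) and in 1 promoter window (2%). Over all peaks it was in 5.56% of intronic and 3.09% of promoter windows, and in 2.98% of the intronic flanks. The word was chosen from the strongest windows, so its frequency among them is a description. The share over all intronic peaks includes those windows. In the sites ranked 244 to 486 it was 4.53%, against 2.88% of their flanks.

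A second sequence recurred at summits of varied strength. None of those with it was stronger than the site in CG32767, which ranked 18 among intronic sites (pooled signal 284). The stretches below hold the word CACAGTGG, in capitals, with 10 bases before and 12 after it, each read 5′ to 3′ on the strand that carries the word. They are the 12 strongest intronic peaks with the word inside such a window, on the arms shown.
CG32767 (chrX:5083825-5083854, minus strand): ggccccatcgCACAGTGGgacgcgcagact
scrib (chr3R:26536806-26536835, plus strand): tacgccgctgCACAGTGGcacaaaaacgag
sim (chr3R:13065305-13065334, minus strand): agaagcggagCACAGTGGtgcatgtgctgt
CHES-1-like (chrX:7700453-7700482, minus strand): ctgtttggcgCACAGTGGgcactcgcttga
KP78b (chr3R:11351596-11351625, minus strand): tcacttagtgCACAGTGGtgcaaggtctat
simj (chr3L:10683185-10683214, minus strand): gctatcagtgCACAGTGGgtcgcattcgcg
Fur1 (chr3R:25446154-25446183, plus strand): cgatgcattgCACAGTGGggcaagaaagca
CG11357 (chr3L:4543274-4543303, plus strand): caagttcaggCACAGTGGcacgcatgcctg
Mtp (chr2L:20922209-20922238, plus strand): agtggccctgCACAGTGGgcagcgataagg
Pits (chrX:12574747-12574776, minus strand): tgtgagcctgCACAGTGGaacaagaatgac
B4 (chr2L:13513603-13513632, plus strand): ctcgaattcgCACAGTGGcctcaatctgac
nkd (chr3L:19041984-19042013, minus strand): ggccgtcgtgCACAGTGGttaaaaatcgtg
The word was present in 31 of the 486 intronic windows, 1 of which held it at a pair of positions, giving 32 occurrences. The base just before it was G in 28 of 32 occurrences (87.5%), against 70.8% of 106 occurrences in relaxed intronic peaks and 86.9% of 61 in promoter peaks. The third base after it was C in 24 of 32 (75%), against 44.3% in both other groups. Which bases beside the word to compare was not planned, and no test was made. Among the hosts, scrib encodes a cell polarity scaffold, sim a transcription factor of midline cells, CHES-1-like a forkhead protein, simj a subunit of a nucleosome remodelling complex, Fur1 a furin-type protease and nkd an antagonist of Wnt signalling.

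Within the optimal list, intronic peaks were about as strong as promoter peaks. Their pooled signal had a median of 92.1 (quartiles 76.3 and 125, range 66.9 to 965), beside 95 for the 1294 optimal promoter peaks and 90.4 for the 164 intergenic ones. They made up 5.65% of all 8597 intronic peaks of the pooled relaxed list, which holds 30000 peaks. The 8015 intronic peaks of that list that overlapped no optimal peak, called relaxed intronic peaks below, had a median signal of 26.6, and they are the comparison group for position and sequence. The optimal list holds the strongest pooled peaks, so the difference in signal between optimal and relaxed intronic peaks is fixed by the choice. Optimal intronic, promoter and intergenic peaks all begin at the same lowest signal, 66.9, so their similar medians are partly set by it.

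The strongest site lay in the first intron of ush, whose protein binds GATA transcription factors as a cofactor. Its signal was 965 in the pooled list, 395 in replicate 3 (rank 3) and 566 in replicate 4 (rank 2). The nearest TSS, 1394 bp away, belongs to cbt, not to ush. The site in CG11050 had a pooled signal of 808, with 350 in replicate 3 and 456 in replicate 4. It sat in an intron of only 140 bp, the shortest of all 486. In Lk6, a kinase that acts on the translation factor eIF4E, the signals were 754, 354 and 402. All 3 ranked 6 or better in each replicate.

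Sites in CG32772 (pooled 575, replicate 3 at 284, replicate 4 at 294), CG9663 (552, 255 and 293) and NFAT (pooled 486, replicate 4 at 284, ranks 25 and 20 in replicates 3 and 4) followed. NFAT encodes a transcription factor related to those that respond to calcium in vertebrates. The site in HmgZ, an HMG-box chromatin protein, had signals of 385, 189 and 200. Raf, the kinase between Ras and MEK, had 347, 147 and 197. Adf1, a transcription factor, had 331 in the pooled list, 197 in replicate 3 (rank 29) and 147 in replicate 4 (rank 104). The remaining hosts among the 20 strongest were CG31635, mub, Tlk, CG32264, Trl, CG32486, CG9837, cno, CG32767, CG3726 and CG10543, with pooled signals from 276 to 358. Of these, mub encodes a KH-domain RNA-binding protein, Trl the GAGA factor and cno the junction protein Canoe.

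Each of the 486 sites met a relaxed peak in both replicates. The optimal list was itself made by the irreproducible discovery rate, a measure of agreement between replicates. The overlap and the high shares below are therefore largely set by that choice. A peak was called strong in a replicate when it was among its strongest, taking as many as the optimal list holds. Strong were 398 of the sites in replicate 3 (81.9%) and 397 in replicate 4 (81.7%). In both replicates 315 were that strong, or 64.8% (60.5 to 68.9), and in neither 6. The share over all optimal peaks was 66.2%, and over promoter peaks it was 67.5%. Fisher's exact test detected no difference between intronic and promoter peaks (adjusted p = 0.309 over 3 tests; odds ratio 0.888, 95% interval 0.713 to 1.11). Both classes had passed the same choice, so the test cannot show how reproducible intronic binding is in general. Spearman's rho of the replicate signals across the 486 sites was 0.528, and 0.596 across 1292 promoter peaks, as descriptions in which adjacent summits can share a replicate peak.

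**Figure D1:**
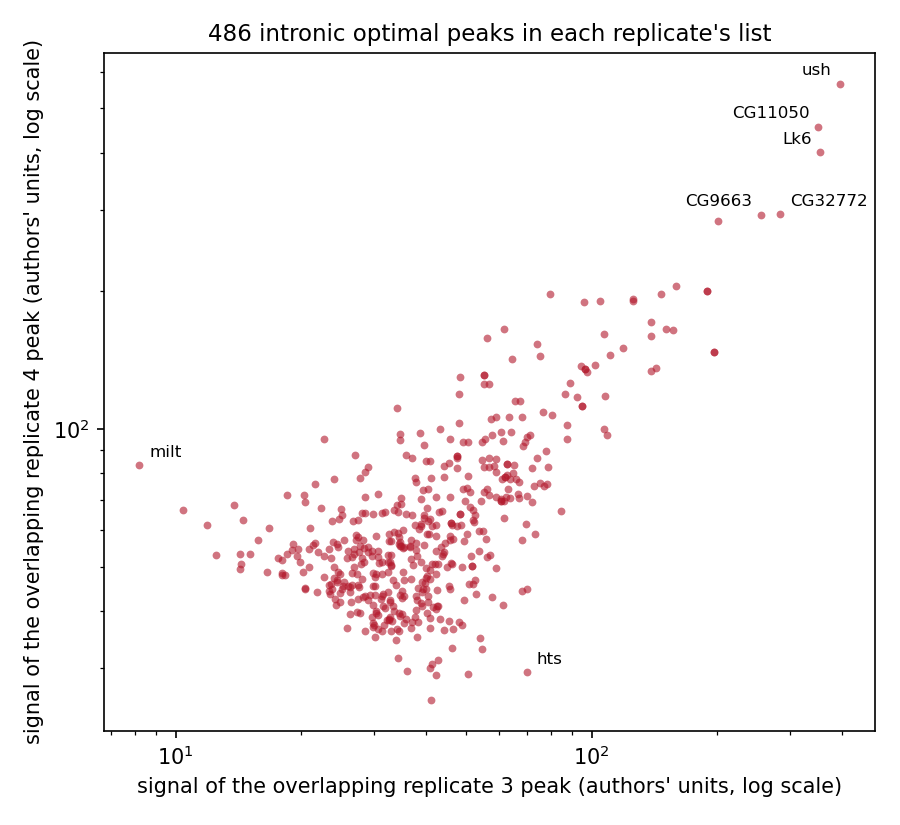
Each point is 1 of the 486 intronic optimal peaks, with the signal of the overlapping peak in replicate 3 on the x axis and in replicate 4 on the y axis (both log scales, the authors' units, not comparable in size between axes). The 5 strongest sites lie at the upper right in both lists, while milt (8.17 in replicate 3, 83.2 in replicate 4) and hts (69.8 and 29.4) lie farthest to either side.

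Some sites ranked far apart in the replicates. In milt, which encodes an adaptor between kinesin and mitochondria, the signal of 83.2 in replicate 4 ranked 417 and that of 8.17 in replicate 3 ranked 20498. COX7AL2 (22.8 in replicate 3, 94.9 in replicate 4) and the fry gene, with 21.7 and 75.8, were also relatively stronger in replicate 4. The opposite held for hts, the fly adducin, at 69.8 in replicate 3 and 29.4 in replicate 4, for a site of CHES-1-like (54.5 and 33) and for ERp60 (53.9 and 35), a protein of the endoplasmic reticulum. With 1 value per library no error can be put on these single sites.

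First introns held most of the sites. A summit lay in the first intron of at least 1 transcript of its host gene in 369 of 486 cases, 75.9% (71.9 to 79.5), against 4484 of 8015 relaxed intronic peaks, 55.9%. This difference passed Fisher's exact test (adjusted p = 1.94e-18; odds ratio 2.48, 2.01 to 3.07). Counted once per host gene, with its strongest peak, the shares were 76.2% of 374 genes and 55.7% of 2484. The sites also lay nearer to start sites, so the share was taken within bins of distance to the nearest TSS, an alternative added after the values were seen. From 500 to 2000 bp it was 85% against 69.3%, from 2000 to 5000 bp 69.8% against 57.3%, and beyond 5000 bp 60% against 43%.

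**Figure D2:**
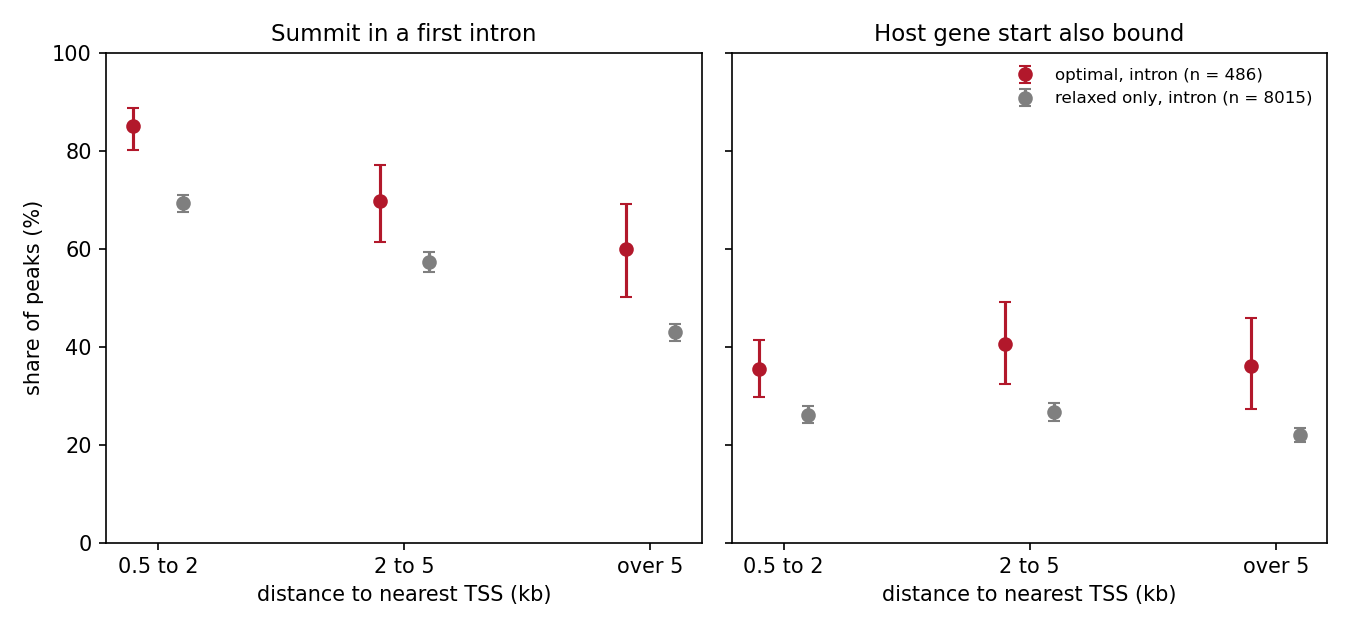
Share of intronic optimal peaks and of relaxed intronic peaks (y axis, %) whose summit is in a first intron (left) and whose host gene has a bound start (right), by distance to the nearest TSS (x axis, kb). Bars are Wilson 95% intervals, which cover counting error only; in each bin the optimal peaks have the higher share, 85% against 69.3% in the nearest bin of the left panel.

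The start of the host gene itself was often bound. For 179 of the 486 sites (36.8%) the host had an optimal summit within 500 bp of one of its own TSSs, against 24.7% of relaxed intronic peaks (Fisher's exact test, adjusted p = 1.54e-08; odds ratio 1.78, 1.47 to 2.15). Once per host gene the shares were 32.6% of 374 genes and 19.3% of 2484. These come from 2561 genes in all, so most hosts of a site are in both groups with the same value. The test counted peaks, so a gene with several peaks entered it several times, and its p-value does not measure variation between genes. With a stricter list of peaks, which leaves fewer starts to be bound, the shares were 24% and 13.4% of peaks. Among the strongest sites, the hosts CG11050, CG9663, HmgZ, CG31635, Tlk, CG32264 and Trl had a bound start. The hosts ush, Lk6, CG32772, NFAT, Raf, Adf1, mub, CG32486, CG9837, cno, CG32767, CG3726 and CG10543 had none in the optimal list. The other 307 sites thus lay in genes with no optimal peak at a start.

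Intronic summits lay a median of 1882 bp from their nearest TSS (quartiles 972 and 4239), against 3370 bp for relaxed intronic peaks and 1828 bp for optimal intergenic peaks. The nearest TSS belonged to the host in 378 cases (77.8%), against 66%. Host introns had a median length of 8346 bp (3855 and 17653), close to the 9196 bp of relaxed intronic peaks, but introns under 1 kb held 20 sites (4.12%) against 10.2%. Within its intron a summit lay at a median of 37% of the length from the 5′ end, against 43.1%, and 10.7% lay in the final 20% against 15.6%. The farthest from any start were sites in Snoo, a Ski family gene (34861 bp, signal 123), kirre, needed for myoblast fusion (33591 bp, 76.2), and dnc, a cAMP phosphodiesterase (29652 bp, 73.1). Just beyond the 500 bp limit were sites in tacc (501 bp, 89.7), pAbp (507 bp, 224) and Eip63F-1 (507 bp, 124). Just within it, and so counted as promoter peaks, were summits near CG31523 (498 bp, 132), CG31807 (487 bp, 105) and Rgl (487 bp, 77.2), and 286 promoter peaks in all lay inside introns.

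The 486 sites fell in 374 host genes, of which 298 held 1, 60 held 2 and 16 held 3 or more. Of all genes with an intronic summit in the pooled list, 14.6% hosted a site. The genes ush and Tlk, a kinase that acts on histone chaperones, held 7 each. The 7 of ush spanned 39827 bp and ranged in signal from 66.9 to 965, all in first introns. In Tlk they spanned 38920 bp with signals from 70.4 to 320. CG1677 held 6, all in a later intron and with signals from 68.2 to 109. Their nearest starts belonged to other genes, among them brk, a repressor of Dpp targets, and unc-119. Raf held 5, also in a later intron. NFAT, HmgZ, sick, CHES-1-like, Hr4, simj and crp held 4 each.

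Neighbouring summits can belong to 1 stretch of bound chromatin. An optimal summit lay within 400 bp of 23 of the sites, and joining intronic summits that close left 475 separate sites. By that count ush and Tlk had 6 each, NFAT and HmgZ 3 each, and all 16 genes still had 3 or more. Another optimal summit within 5 kb was found for 193 sites, 39.7% against 34.1% of promoter peaks, which was not tested.

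**Figure D3:**
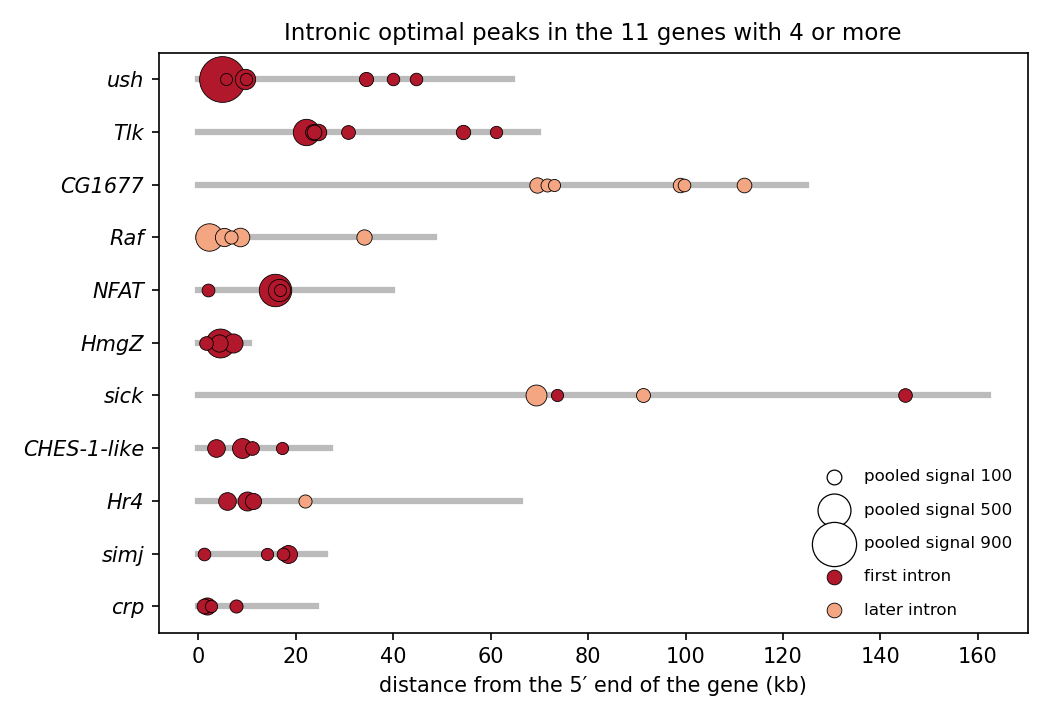
Positions of intronic optimal peaks in the 11 genes with 4 or more, as distance from the 5′ end of the gene in kb (x axis); grey lines are gene bodies and the area of a circle is the pooled signal. Dark circles are first introns and light circles later ones; the 7 circles of ush include the strongest site (965), while the 6 of CG1677 are all light and none exceeds 109.

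Hosts were also grouped by function, in 14 lists written with the strongest hosts already known. The share of genes hosting a site was 14.6% over all 2561 eligible genes, and it was above that in all lists except the cytoskeleton list, which equalled it. Genes of 12 lists also had more intronic peaks of any strength, a median of 2.5 to 7 per gene against 2 over all, while cytoskeleton and metabolism genes had 2. The share of a list's intronic peaks that were optimal is therefore given beside its share of hosts. Over all genes it was 5.72%, counting optimal and relaxed intronic peaks and leaving out pooled peaks that overlap an optimal peak without being one. Leaving out genes whose names had been seen in earlier results, 12.7% of the remaining genes hosted a site and 4.77% of their intronic peaks were optimal. In the lists so reduced, the share of hosts was below 12.7% for axon guidance (10.9%), ion channels (12%) and the GATA list (0 of 4 genes). No test was made on a list.

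Chromatin regulators hosted a site in 14 of 28 eligible genes (50%), and 27 of their 167 pooled intronic peaks were optimal (16.2%). Apart from Tlk they included wde, a partner of a histone H3K9 methyltransferase (238 in the pooled list, 102 in replicate 3, 138 in replicate 4), skd, a subunit of the Mediator kinase module (56.1 in replicate 3, 158 in replicate 4), and Kdm4B, a histone demethylase (164, 63.3 and 106). The trithorax group genes trx (112) and osa (73.5) and the Polycomb group genes Psc (80.1) and ph-p (76.6) had weaker sites. In the reduced list, 8 of 21 chromatin genes hosted a site (38.1%, 20.8 to 59.1), and 13% of their peaks were optimal.

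Signalling genes followed. Kinases and phosphatases counted 15 of 44 (34.1%; 11.2% of peaks), led by Lk6, Raf and Tlk, and 25.6% and 6% in the reduced list. Csk, which restrains Src kinases, had signals of 275, 139 and 134 in the pooled list and replicates 3 and 4, and for, a cGMP-dependent kinase, 270, 119 and 150. Receptors and ligands of developmental signalling counted 12 of 36 (33.3%; 6.57% of peaks), with a single site in most, and 35.3% and 7.65% in the reduced list. The Wnt receptor gene fz had 2, the stronger at 172 (71.2 and 97), 22194 bp from any start. The BMP receptor gene wit had 154 (78.3 and 75.7), the insulin receptor gene InR 129 (56.8 and 71.7) and the Notch gene N 125 (60.6 and 70.4). Regulators of small GTPases counted 12 of 33 (36.4%; 8.33% of peaks), with cno at 291, RhoGAP92B at 118 and C3G at 116. Reduced, that list had 31% and 8.33%.

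Genes for transcription factors had shares from 25.5% to 28.6%. Developmental factors counted 14 of 55 (25.5%; 9.79% of peaks), among them NFAT, Adf1 and HmgZ, a chromatin protein placed in that list. Zinc finger and BTB factors counted 10 of 37 (27%; 4.62% of peaks, below the share over all genes), led by Trl (315), CG32767 (284) and CG10543 (276). Nuclear receptors and ecdysone response genes counted 6 of 21 (28.6%; 5.62% of peaks, near that share). In the reduced lists the hosts were 14.9%, 13.8% and 21.1% of genes, and 4.39%, 2.9% and 3.1% of peaks were optimal, all 3 below the 4.77% over all. Of the nuclear receptors, Hr3 had 212 (109 in replicate 3, 96.9 in replicate 4), the ecdysone receptor gene EcR 190 (76.6 and 109) and Hr4 166 (64 and 98.6). In the GATA list ush was the only host among 5 eligible genes, with 7 of 40 peaks optimal (17.5%).

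RNA-binding protein genes counted 12 of 36 (33.3%), but 5.28% of their peaks were optimal, below the 5.72% over all genes; reduced, the list had 29% and 5.59%. Their strongest sites were in mub at 321 (151 and 165), the poly(A)-binding protein gene pAbp at 224 (74.1 and 153) and brat, a translational repressor, at 137 (55.3 and 82.5). Metabolism and transport genes counted 8 of 29 (27.6%; 14.5% of peaks; reduced, 19.2% and 8.93%), with CG9663 at 552, LPCAT, a phospholipid acyltransferase, at 255 and the lipid droplet protein gene Lsd-2 at 164. Cadherin and junction genes counted 8 of 33 (24.2%; 5.82% of peaks; reduced, 19.4% and 4.43%), with cno, scrib at 229 (61.5 and 165) and ed, an adhesion molecule, at 98. Lowest were axon guidance and neural adhesion with 9 of 51 (17.6%; sick 202, kirre 131, Fas3 106), ion channels with 4 of 26 (15.4%; norpA, the phospholipase C of phototransduction placed in that list, 270) and cytoskeleton and muscle with 7 of 48 (14.6%; tsr, the fly cofilin, 143). Of their intronic peaks, 3.54%, 4.94% and 4.94% were optimal, below the 5.72% over all genes. Reduced, the shares of peaks were 1.72%, 3.85% and 4.17%, and cytoskeleton genes hosted a site in 13.6%.

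Of 29 motifs searched on both strands, 2 (6.9%) were more frequent in the windows at intronic summits than in flanking windows, equally wide and 500 bp away, and none (0%) was less frequent. Unadjusted, 4 had a p under 0.05 in the exact McNemar test, 2 of them lower at the summit. CACTGTG was in 48 of 486 summit windows (9.88%) and in 1.44% of flanking windows (exact McNemar test, adjusted p = 1.68e-07). CACAGTGG was in 31 (6.38%) and in 0.823% (exact McNemar test, adjusted p = 2.03e-05). These are not separate findings, since CACAGTGG contains CACAGTG, the reverse complement of CACTGTG. Both words were taken from earlier results that included these peaks, so the tests are not independent of that choice. Optimal intergenic summits held CACTGTG in 4.88% and CACAGTGG in 4.27%. Relaxed intronic summits held CACTGTG in 2.51% and CACAGTGG in 1.32%, and promoter summits held them in 7.11% and 4.56%, a difference from the intronic sites that did not pass (Fisher's exact test, adjusted p = 0.159 and 0.246). Both did pass as more frequent in intronic sites without replicate 3 (Fisher's exact test, adjusted p = 0.0293 and 0.0333) and in windows reaching 100 bp to either side, with 19.1% against 11.1% for CACTGTG and 13% against 6.88% for CACAGTGG (Fisher's exact test, adjusted p = 1.21e-04 and 4.07e-04). Words of 8 bases ranked on some arms gave the same sequence, with CACAGTGG at 5.96% of the 285 sites there and at 6.97% of those on the other arms, against 0.746% of the flanks of the latter. As the word was already known from these data, the other arms give no independent check, and the ranking is a description. Some other highly ranked words were not more frequent than in flanks on the other arms. AGTTTTAT, which contains AGTTTTA, was among them (0.995% of sites against 2.49% of flanks).

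**Figure D4:**
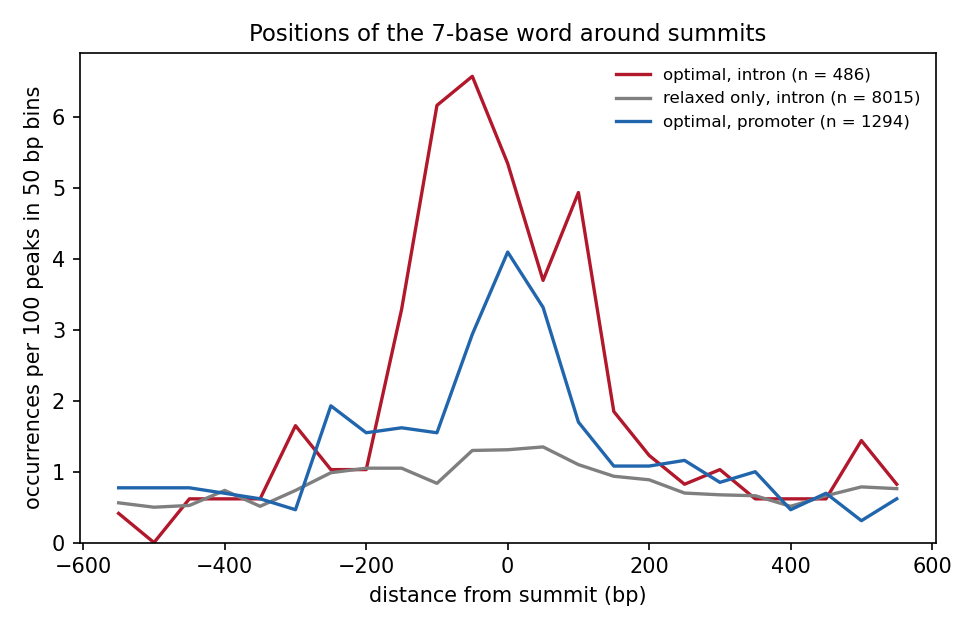
Occurrences per 100 peaks (y axis) of the 7-base word CACTGTG, on either strand, in 50 bp bins of distance from the summit (x axis, bp). In intronic optimal peaks the value is 5.35 at the summit, 6.58 at -50 bp and 6.17 at -100 bp; in promoter peaks it is 4.1 at the summit, and in relaxed intronic peaks it stays between 0.836 and 1.35 within 100 bp.

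Against promoter peaks, 4 motifs (13.8%) were less frequent in intronic windows and 3 (10.3%) more frequent. The DRE, TATCGATA, bound by the factor Dref, was in 1 intronic window (0.206%) and in 5.8% of promoter windows (Fisher's exact test, adjusted p = 1.51e-08). The core of BEAF-32, an insulator protein, is CGATA, which every DRE contains, and it was in 11.9% against 25.7% (Fisher's exact test, adjusted p = 2.68e-09). Motif 7, a core promoter element, was in 1.44% against 6.57% (Fisher's exact test, adjusted p = 1.80e-05). Motif 1 was in 0 of 486, which allows a share of up to 0.617% (3 counts of 486, counting error only), against 1.24% (Fisher's exact test, adjusted p = 0.0438), and this call was lost in 4 of 8 alternatives, leaving out replicate 4 among them. The Twist E-box CATATG was in 7% of intronic and 2.55% of promoter windows (Fisher's exact test, adjusted p = 2.52e-04), and the flanks of the intronic sites held it in 4.94%. GATA, the motif of GATA factors, was in 21.8% against 15.9% (Fisher's exact test, adjusted p = 0.0239). This call was lost in the stricter list (21% of intronic and 17.7% of promoter windows, Fisher's exact test, adjusted p = 0.629). The intronic flanks held GATA in 21.2% on the side drawn for the test and in 19.3% over both sides. Only without replicate 4 did GATA pass against flanks, with 24.3% against 16.3% (exact McNemar test, adjusted p = 0.0274). The CA repeat CACACACA was in 3.7% against 1.62% (Fisher's exact test, adjusted p = 0.0438), with 4.32% in the flanks, and was lost in 5 of 8 alternatives, those without either replicate among them. Relaxed intronic peaks held the DRE in 0.137%, the BEAF-32 core in 10.9% and Motif 7 in 0.936%, each near the share of the intronic optimal sites. They held the Twist E-box in 3.46% and GATA in 16.6%, both below the intronic optimal sites, and the CA repeat in 4.2%. These differences between intronic groups were not tested.

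Summits of the intronic sites were low in GC over a narrow stretch. The summit window had a median GC content of 36.6% (quartiles 31.7 and 43.6), and the windows 500 bp to the sides 41.1%. Relaxed intronic peaks went the other way, with 44.6% at the summit and the same 41.1% beside it. In promoter peaks the values were 41.6% and 45%, and in optimal intergenic peaks 38.6% and 41.1%, so lower GC at the summit was not particular to introns. The window was lower in GC than its flanks in 305 of 486 intronic sites (62.8%, 58.4 to 66.9), in 37.7% of relaxed intronic peaks and in 60% of promoter peaks. The median GC content was 33.7% in the 50 strongest sites, 35.6% in the next 193 and 37.6% in the weaker 50%. These values are descriptions without a test.

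**Figure D5:**
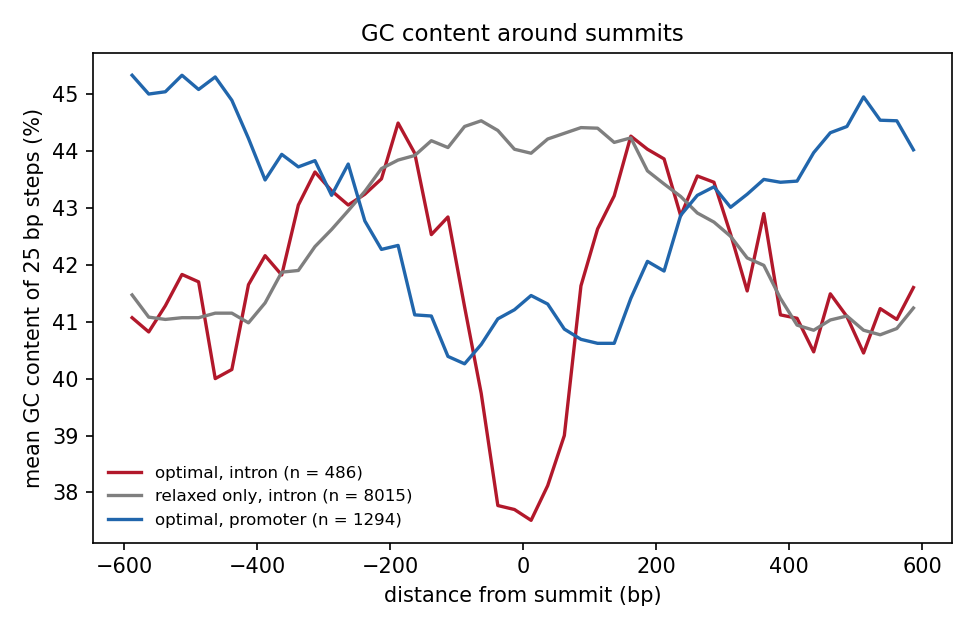
Mean GC content (y axis, %, in 25 bp steps; the axis does not start at 0) against distance from the summit (x axis, bp) for intronic optimal, relaxed intronic and optimal promoter peaks. The intronic optimal peaks fall to 37.5% beside the summit from 44.5% at -188 bp, relaxed intronic peaks stay at 44% there, and promoter peaks reach 41.5%.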

How the data were processed

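The members and gene lists were chosen with earlier results of these data known. Per the deposited file listing, the authors made a relaxed peak list for each replicate and for both pooled, each from alignments and a control file, and an optimal list by the irreproducible discovery rate; which aligner, caller, versions and cutoff were used is not given in the sources used here. The deposited signal is the authors' enrichment value per peak. The optimal list held 1985 peaks, and as many of each replicate counted as strong. Motif windows were 101 bp. Build dm6 was used, with 1-based coordinates. The dm3 lists were not used. Summits were annotated with Ensembl release 115 gene models (18358 genes, transposable elements left out), and sequences were read from the RefSeq release 6 genome. The host was the gene whose intron held the summit, and of several the protein-coding one with the shortest intron. Fisher's exact tests (two-sided) compared shares of peaks, and exact McNemar tests (two-sided) compared summits with flanks, with Benjamini-Hochberg adjustment (scipy 1.17.1, statsmodels 0.14.6) within 3 tests of shares and within 29 motifs, at a threshold of 0.05. Odds ratios have 95% intervals, with 0.5 added where a cell was 0. Peaks of 1 gene are not independent, peaks are not replicates, and intervals cover counting error only. The motif tests were tried on simulated windows with planted motifs. All those windows had the same base composition, so the trial did not cover the difference in GC content between summits and flanks. Named genes are the hosts of the 20 strongest sites, the hosts with most sites, up to 3 of each list, and the extremes in replicate rank, distance and the limit. Genes named beside these were chosen after their values were seen. Alternatives were each replicate alone, a stricter list of the strongest 1000 peaks, TSS limits of 250 and 1000 bp, protein-coding models, windows of 51 and 201 bp, and other overlap settings. Counts per host, distance bins, GC content, bases beside CACAGTGG and reduced gene lists were added after seeing the data.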

Additional observations from a re-analysis of the deposited data

How the results depend on the processing

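The first intron share and the share of hosts with a bound start stayed past the threshold, higher than in relaxed intronic peaks, under every alternative run. Ranking by 1 replicate alone gave 463 to 498 intronic sites, first intron shares of 74.7% to 77.1%, bound host starts at 35.9% to 40.8% (49% with a TSS limit of 1000 bp), a median distance to the nearest TSS of 1806 to 1898 bp, host introns of 7928 to 8938 bp, GC contents of 34.7% to 38.6%, 2 to 3 motifs called against flanks and, against promoter peaks, 6 without replicate 4 and 11 without replicate 3. The stricter list left 233 sites, a distance of 1559 bp, introns of 7541 bp and 1 motif against flanks, CACTGTG (adjusted p = 0.0255, exact McNemar test), while CACAGTGG did not pass (7.73% against 1.72%; adjusted p = 0.063). A TSS limit of 250 bp gave 580 sites and 1404 bp, and one of 1000 bp gave 359 sites, 2780 bp and introns of 10350 bp, as these limits set the distances. Protein-coding models gave 1964 bp. Windows reaching 100 bp to either side gave 11 motifs against promoter peaks and, against flanks, 3, of which 1, Su(H), was rarer in summit windows (1.44%, with 4.73% in flanks, exact McNemar test, adjusted p = 0.0241). Counting the strongest 5000 peaks of each replicate, 96.3% of intronic and 96.1% of promoter peaks were strong in both (adjusted p = 0.891, Fisher's exact test), a reversed direction that had not passed before; the cause was not tested. That share cannot be computed without a replicate. No paired analysis was possible because there is 1 group. The depth behind each peak is unknown, and no background in an untagged line was measured.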

Other observations

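Counts of intronic sites per length of intron differed between arms, which was not tested. Arm X held 121 (11.9 per Mb of intron) and 2L held 99 (11.5), against 9.2 over all arms, while 2R held 65 (7.03), 3L 82 (7.89), 3R 118 (8.53) and the small arm 4 a single one. Relaxed intronic peaks were least dense on X among the large arms, at 136 per Mb against 152 over all, so that 8.01% of both kinds on X were optimal and 4.04% on 2R, beside 5.72% over all. Several of the genes with most sites (Tlk, CG1677, Raf, NFAT) lie on X. None of the 486 summit windows overlapped an annotated transposable element, against 32 of 8015 relaxed ones (0.399%). A count of 0 in 486 allows a share of up to 0.617%, so the groups are not told apart, and no test was made.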
